A study of Mus musculus with 4 samples.

Results

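The 10 genes described here act in glutathione metabolism and in the antioxidant program driven by the transcription factor NRF2. They are the glutathione S-transferase genes Gsta3, Gsta4, Gstm1 and Gstm2, the glutathione synthesis genes Gclc and Gclm, and the redox enzyme genes Nqo1, Hmox1, Srxn1 and Txnrd1. They were found by exact gene symbol among the 52636 genes of the count matrices, where each symbol stood on 1 row, and all 10 had UMIs in all 4 libraries. A UMI, or unique molecular identifier, marks 1 captured RNA molecule. The genes had been chosen on differences between young and aged libraries in these same data. Their age differences are therefore given as a description, without p-values, and calls from the age test are listed but support nothing. Differences between cell classes were tested for the members other than Gsta3.

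Glutathione is the main small thiol of the cell, and glutathione S-transferases attach it to reactive electrophiles. NRF2, the product of Nfe2l2, is held back by KEAP1, which feeds it to a ubiquitin ligase, and under oxidative or electrophilic stress it escapes, pairs with a small MAF protein and binds antioxidant response elements. BACH1 occupies the same elements as a repressor. In the kidney the pathway is known for protection against oxidative and toxic injury.

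The series compared kidney glomeruli of untreated young mice with those of untreated aged mice, with 2 libraries in each group. Glomeruli were caught on magnetic beads perfused through the heart and dissociated in 2 enzyme digestions, and cells were profiled with droplet-based 3′ single-cell RNA sequencing. The labels give neither the age in months nor strain, sex or genotype, and they do not say whether a library came from 1 animal or a pool, so p-values here measure the spread between libraries, which may be technical in part. The labels call the cell type whole tissue; cell classes were assigned here from marker genes.

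The libraries held 18457791 to 42046542 UMIs, and 28000 of 33323 barcodes passed the filters. Young replicate 2 stood apart: 42.5% of its kept cells could be named and 47.9% carried markers of several classes, against at least 92.6% and at most 5.78% in the other 3 libraries. Its median depth was 1258 UMIs per cell, against 2715 to 3730. Between 9 and 31 barcodes were shared by any 2 libraries. The glomerular classes, named for their likeness to marker lists, were podocyte, endothelial, mesangial and parietal epithelial cells, and each showed UMIs of all its 6 or 7 markers in every library. The order young replicate 1, young replicate 2, aged replicate 1, aged replicate 2 is kept for all values. Podocytes numbered 1785, 1224, 1003 and 664, endothelial cells 2341, 1267, 5813 and 4002, mesangial cells 276, 181, 704 and 543, and parietal epithelial cells 31, 46, 43 and 45. Young and aged mesangial cells lay largely in different clusters: 1 cluster, led by Cxcl13, Ccl2 and Rab3c, counted 25, 18, 688 and 548 cells, and another, led by Gucy1a3, Sfrp2 and Gprin3, counted 370, 239, 26 and 15, mixed cells included.

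Promoters bear on this gene set because NRF2 acts through a short DNA element. The core TGACNNNGC, read on both strands, was sought in the 250 bases before each start site, with RefSeq sequences on GRCm38.p6. Promoter entries matched 7 of the 10 genes, leaving out Gsta4, Hmox1 and Gclc. The core lay in a window of 3 genes, Gsta3, Gclm and Txnrd1, and 11.5% of all 27025 genes with promoter entries had it. The 3 stretches are shown 5′ to 3′ on the gene's strand, with the core, or its reverse complement in Gclm and Txnrd1, in capitals.
Gsta3, chr1:21240434-21240502, plus strand: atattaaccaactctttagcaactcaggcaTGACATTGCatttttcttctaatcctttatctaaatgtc
Gclm, chr3:122245393-122245461, plus strand: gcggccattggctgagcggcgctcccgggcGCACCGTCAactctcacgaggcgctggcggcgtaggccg
Txnrd1, chr10:82859084-82859152, plus strand: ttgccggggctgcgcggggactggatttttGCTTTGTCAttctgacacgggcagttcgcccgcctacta
The Gsta3 and Gclm stretches lie upstream of any annotated gene, and the Txnrd1 stretch lies in an intron of that gene, before the second of its 3 listed start sites. The AP-1 motif TGANTCA, whose letters can overlap a longer antioxidant response element, was found in the window of Srxn1, at 102 and 45 bases before the start, and in none of the other 6 genes. It was present in 7.82% of all genes. These matches are letters in a window and not shown binding sites.

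Counts within a class are given as CPM, the UMIs summed over its cells per 1000000 UMIs of the sum, after TMM scaling between the 4 libraries of that class. Gsta3 had the greatest age difference of the 10 genes in any class, and it lay in mesangial cells, the contractile support cells of the capillary tuft. Gsta3 encodes an alpha-class transferase that detoxifies reactive epoxides in mouse liver. It lies on chromosome 1 at 21240589 to 21265661 and overlaps Gm28836 on the opposite strand. Its mesangial UMIs numbered 3, 3, 211 and 255, which is 1.53, 2.52, 43.2 and 43.2 CPM. Both aged libraries stood far above both young ones. The log2 fold change, aged minus young, was 4.47 ± 0.34 (SE), and the ratio of the summed UMIs was 21.1, with a 95% interval of 9.61 to 57.7 that covers counting error only.

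Within 1 mesangial cluster, Gsta3 was again higher in both aged libraries. These UMIs are part of those on which it was chosen, so this is a description and supports nothing. In the cluster that held most young mesangial cells, Gsta3 had 3 UMIs of 1846448 and 2 of 1072110 in the young libraries, against 9 of 105401 and 3 of 71620 in the aged ones. Without TMM scaling, that equals 1.62, 1.87, 85.4 and 41.9 CPM, where the aged values rest on only 9 and 3 UMIs. In the cluster that held most aged cells it had 0 UMIs of 63748 and 1 of 71470 in young libraries, too few UMIs for a young level, against 202 of 5104692 and 252 of 5967464 in aged ones. Tubule cells, another known site of transferases, formed no named class, and 7 unnamed clusters led by tubule genes, of 20 to 83 cells, had 0 to 189 unscaled CPM of Gsta3. The summed level of the 9 tubule markers in the mesangial sums was 8.06, 2.36, 4.50 and 0.628 CPM, with 4, 7, 1 and 7 of them at 0, and overlapped between the groups. Their part in the Gsta3 difference was not tested.

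Cells were also compared at equal depth, by drawing 1000 UMIs from each and leaving out shallower ones. Gsta3 was then seen in 0 of 275 and 1 of 179 young mesangial cells, where a count of 0 allows a share of up to 1.09%. It was seen in 28 of 701 and 21 of 541 aged ones, or 3.99% (exact 95% interval 2.67 to 5.72) and 3.88% (2.42 to 5.87). Between 1 and 3 cells per library were too shallow to enter. Without thinning, the shares were 1.09%, 1.66%, 21.2% and 27.3%. Endothelial cells, which have little Gsta3, gave 0 of 2314, 0 of 1138, 1 of 5691 and 1 of 3983 thinned cells, at median depths of 2312 to 3216 UMIs against 3820 to 7254 in mesangial cells. These shares come from the same UMIs on which Gsta3 was chosen, so they are a description and support nothing.

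**Figure D1:**
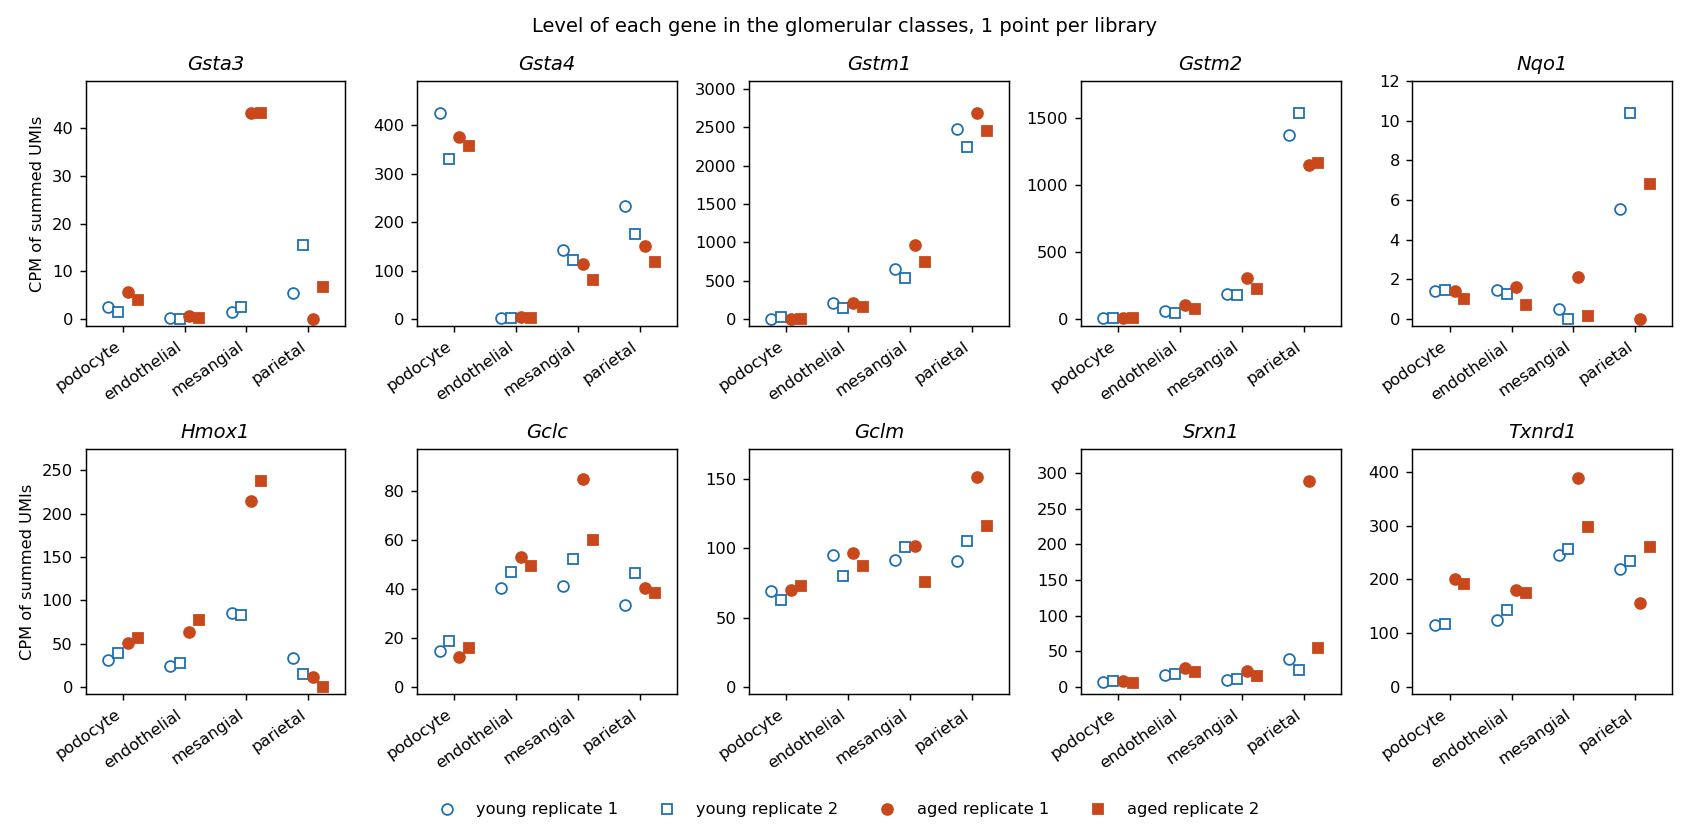
Level of the 10 genes in the 4 glomerular classes (y axis: CPM of UMIs summed per class and library, scaled within the class, or unscaled CPM where a gene was not tested; x axis: class). Each point is 1 library, open for young and filled for aged; the aged mesangial points of Gsta3 sit at 43.2 CPM, and the aged endothelial and mesangial points of Hmox1 lie above the young ones.

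**Figure D2:**
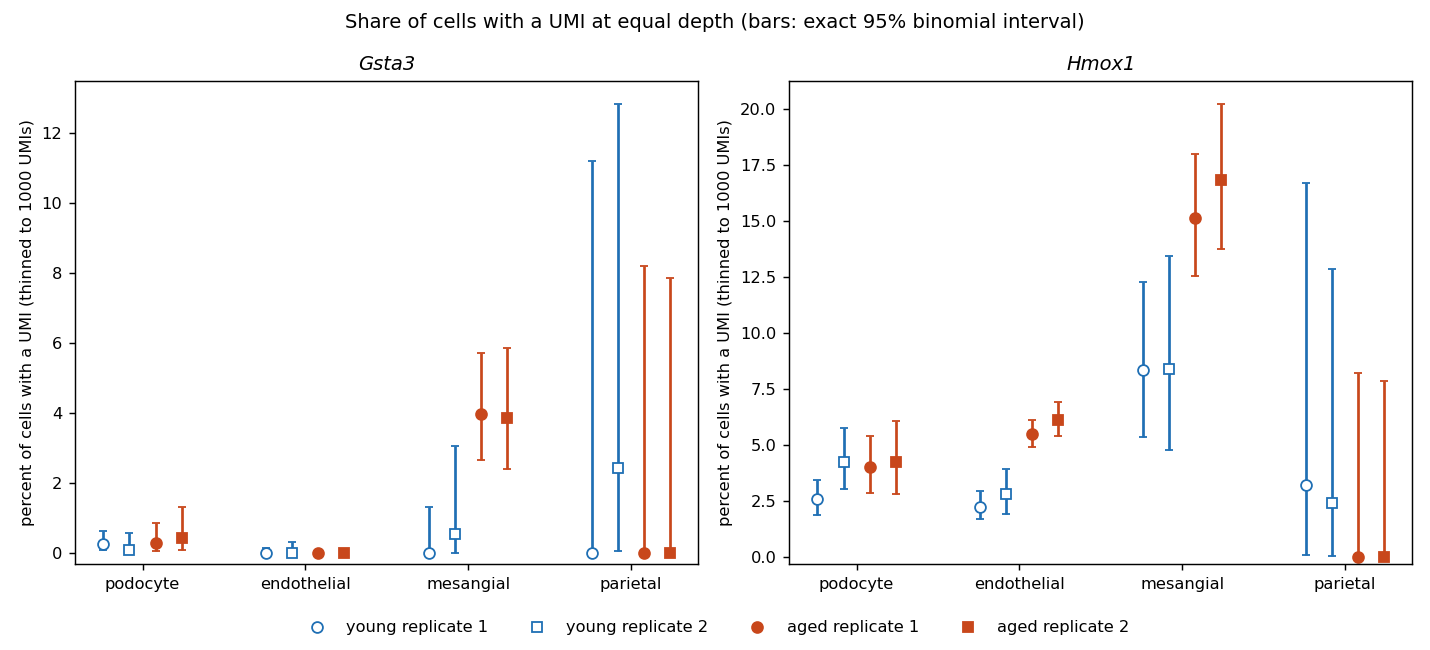
Percent of cells with at least 1 UMI of Gsta3 (left) or Hmox1 (right) after each cell was thinned to 1000 UMIs, by glomerular class (x axis) and library (open young, filled aged). Bars are exact 95% binomial intervals; the aged mesangial shares of Gsta3 are 3.99% and 3.88%.

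Outside the mesangium, Gsta3 was sparse. In podocytes, the filtering epithelial cells, it had 20, 6, 32 and 19 UMIs, or 2.57, 1.44, 5.68 and 3.98 CPM, and the groups did not overlap. The log2 fold change there was 1.20 ± 0.42 (SE). Endothelial cells had 2, 0, 11 and 5 UMIs and parietal epithelial cells 1, 3, 0 and 3, and in both classes the gene stayed under the filter on low counts.

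Gsta4 encodes an alpha-class transferase that clears reactive aldehydes from oxidised lipids, and it was called in no class. Its podocyte levels were 425, 329, 375 and 358 CPM. The aged libraries lay between the young ones, and the log2 fold change was -0.04 ± 0.13 (SE). Mesangial levels were 143, 121, 113 and 80.4 CPM, lower in both aged libraries, with a log2 fold change of -0.45 ± 0.19 (SE). Parietal epithelial cells, the lining of Bowman's capsule, had 233, 175, 151 and 118 CPM, again lower in both aged libraries, at -0.62 ± 0.27 (SE). Endothelial levels were 2.26 to 3.83 CPM and overlapped.

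The mu-class genes Gstm1 and Gstm2 lie near each other on chromosome 3, at 108012255 to 108017973 and 107981702 to 107986453, both on the minus strand. In their last 500 transcript bases, 0.887% of the 50-base words of Gstm1 recur in Gstm3 and 3.10% of those of Gstm2 in Gm6665, and the other 8 members share none with another gene. In endothelial cells Gstm2 stood at 60.0, 48.9, 106 and 78.1 CPM, higher in both aged libraries, with a log2 fold change of 0.75 ± 0.16 (SE). Endothelial Gstm1 levels of 204, 146, 210 and 163 CPM overlapped, with a log2 fold change of 0.08 ± 0.17 (SE). The 6 parietal epithelial markers, from the class richest in Gstm2, summed to 14.1, 17.1, 27.7 and 42.4 CPM in the endothelial sums, with 4, 3, 0 and 3 of them at 0. The part of this in the Gstm2 difference was not tested. At the shares of the parietal level that these sums represent, 1.20%, 1.05%, 2.16% and 3.67%, Gstm2 carried over with them would amount to 11.5, 11.2, 18.3 and 31.6 CPM, where 58.1, 48.3, 103 and 76.4 were measured on the same scale. In podocyte sums the same calculation gives 57.6, 60.9, 32.4 and 37.1 CPM where only 5.77, 7.29, 6.75 and 9.11 were measured, so it overstates Gstm2 there.

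In mesangial cells both mu-class genes were higher in the aged libraries. Gstm1 had 647, 536, 963 and 750 CPM, a log2 fold change of 0.53 ± 0.17 (SE). Gstm2 had 190, 180, 305 and 223 CPM, a log2 fold change of 0.51 ± 0.17 (SE). For both genes the groups did not overlap. In parietal epithelial cells Gstm1 overlapped between the groups, at 2474, 2242, 2689 and 2454 CPM, whereas Gstm2 was lower in both aged libraries, at 1370, 1536, 1152 and 1161 CPM, with a log2 fold change of -0.33 ± 0.17 (SE). In podocytes Gstm2 overlapped, at 5.92 to 9.42 CPM.

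Podocyte Gstm1 showed how far 1 library could set a value. Its levels were 7.72, 21.8, 5.33 and 6.28 CPM and its log2 fold change was -1.29 ± 0.45 (SE). Young replicate 2 held the high value. Without that library the log2 fold change was -0.42, and with only clusters in which fewer than 10% of cells were mixed, a setting added after the data were seen, it was -0.37. The 7 endothelial markers summed to 33.2, 319, 68.9 and 55.9 CPM in the podocyte sums, highest in the same library and none of them at 0. At that share, Gstm1 carried over from endothelial cells would amount to 4.17 CPM in young replicate 2, and the same calculation with mesangial markers gives 3.20 CPM, where 21.4 were measured. The 6 markers of parietal epithelial cells, the class richest in Gstm1, summed to 70.6, 93.1, 49.2 and 49.8 CPM in the podocyte sums. That is 6.05%, 5.74%, 3.83% and 4.31% of their parietal level, where Gstm1 stood at 1719, 1550, 1972 and 1820 CPM. For Gstm2 such shares overstated the podocyte level. The part of RNA from other classes in the podocyte Gstm1 result was not tested.

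Glutathione itself is made in a first step by glutamate-cysteine ligase, of which Gclc encodes the catalytic subunit and Gclm the modifier subunit. Neither subunit was called in any class. Mesangial Gclc had 41.2, 52.2, 84.9 and 60.0 CPM, higher in both aged libraries, with a log2 fold change of 0.65 ± 0.21 (SE). Mesangial Gclm had 91.1, 101, 101 and 75.3 CPM and overlapped, with a log2 fold change of -0.12 ± 0.18 (SE). In endothelial cells Gclc had 40.7, 46.9, 53.0 and 49.7 CPM, a log2 fold change of 0.24 ± 0.14 (SE), and Gclm had 80.0 to 96.6 CPM with overlapping groups. In podocytes the log2 fold changes were -0.24 ± 0.21 (SE) for Gclc and 0.11 ± 0.11 (SE) for Gclm. The parietal epithelial value for Gclm was 0.41 ± 0.32 (SE) from 14 to 44 UMIs per library, and Gclc, with 6 to 17 UMIs, stayed under the filter there.

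Hmox1 encodes heme oxygenase 1, which opens the heme ring into biliverdin, iron and carbon monoxide, and it was higher in the aged libraries of 3 glomerular classes. In endothelial cells it had 24.0, 27.8, 64.0 and 77.0 CPM. In mesangial cells it had 85.0, 83.3, 215 and 238 CPM. Neither pair of groups overlapped, and the log2 fold changes were 1.45 ± 0.16 (SE) and 1.43 ± 0.15 (SE). Podocytes had 31.4, 38.8, 50.6 and 57.2 CPM, also without overlap, with a smaller log2 fold change of 0.63 ± 0.14 (SE). Parietal epithelial cells had 6, 3, 3 and 0 UMIs and were not tested.

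Macrophages, which recycle heme iron, had the highest Hmox1 level, and 3, 12, 568 and 493 cells were named as such, nearly all in the aged libraries. The complement genes C1qa, C1qb and C1qc, which mark these macrophages, together had 11.2 and 13.6 unscaled CPM in the aged endothelial sums and 5.95 and 14.4 in the aged mesangial sums. That is 0.0392% to 0.103% of their level in the macrophages of the same library. At such shares, Hmox1 carried over with them would reach 0.218 to 0.677 unscaled CPM, where 61.2 to 232 were measured. Of the other 3 macrophage markers, Mrc1 is present in the mesangial sums of all libraries, with 559 to 2300 UMIs, and Csf1r and Adgre1 had at most 14 UMIs each in the endothelial and mesangial sums. Monocytes and dendritic cells also had much Hmox1. Their 6 markers summed to 93.3, 107, 117 and 168 CPM in the endothelial sums, with 2, 3, 2 and 3 of them at 0, and at these shares Hmox1 carried over would amount to 3.18, 1.60, 19.3 and 45.8 CPM, where 23.3, 27.5, 61.8 and 75.4 were measured. Plac8 gave 592, 430, 1792 and 2468 UMIs of these, and the other 5 markers had at most 4 UMIs each. In the mesangial sums the same calculation gives 0.0943 to 1.71 CPM, where 78.0 to 220.3 were measured. The part of immune cell RNA in the Hmox1 differences was not tested.

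At equal depth Hmox1 was seen in 2.25% and 2.81% of young endothelial cells and in 5.50% and 6.13% of aged ones. In mesangial cells the shares were 8.36% and 8.38% against 15.1% and 16.8%. In both classes each aged library lay above each young one. In podocytes, whose CPM did not overlap, the young shares were 2.58% and 4.26% and both aged shares lay between them. Parietal epithelial cells, with little Hmox1, gave 1 of 31, 1 of 41, 0 of 43 and 0 of 45 thinned cells, at median depths of 2625 to 7152 UMIs. Without thinning, the endothelial shares were 5.43%, 6.79%, 11.9% and 18.2% and the mesangial ones 33.7%, 29.8%, 49.7% and 57.5%, and 19 to 129 endothelial cells per library were too shallow to be thinned. Within the mesangial cluster that held most young cells, Hmox1 had 87.7 and 91.4 unscaled CPM in young and 180 and 154 in aged libraries. That cluster held only 26 and 15 aged cells, mixed cells included, so its aged values rest on few cells. Hmox1 also responds to cell stress, so 13 genes known to respond to dissociation were counted. In endothelial cells 1 of 13 was called, higher (Dusp1), against 6.18% of all genes, but the list's median log2 fold change was 0.43 and the groups did not overlap for 11 of 13, against 48.9% of all genes. Fos, Junb, Ier2, Zfp36, Hspa1a, Hspa1b and Hsp90aa1 were also higher in both aged endothelial libraries without being called. Fosb, Jun and Egr1 were lower in both, at log2 fold changes of -0.22, -0.33 and -0.57, and were not called either. In mesangial cells 3 of 13 were called, all lower (Jun, Egr1, Atf3), against 5.99% of all genes, with a list median of -0.07. In podocytes 2 were called higher (Atf3, Dnajb1) and 1 lower (Dusp1), with a median of 0.12, against 2.85%, and in the parietal class 7 were called lower, with a median of -0.88, against 3.88%. The part of dissociation in the Hmox1 values was not tested.

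Txnrd1 encodes the cytosolic thioredoxin reductase, a selenoprotein that keeps thioredoxin reduced. In podocytes it had 115, 118, 201 and 191 CPM. The values within each group were close and the groups lay far apart, with a log2 fold change of 0.75 ± 0.10 (SE). Endothelial cells had 124, 143, 180 and 175 CPM and mesangial cells 245, 256, 389 and 296 CPM, in both cases higher in the aged libraries, with log2 fold changes of 0.41 ± 0.14 (SE) and 0.45 ± 0.16 (SE). Parietal epithelial values of 220, 234, 156 and 260 CPM overlapped.

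Srxn1 encodes sulfiredoxin, which repairs peroxiredoxins that have been over-oxidised. Parietal epithelial cells had 38.8, 23.4, 289 and 55.2 CPM, and aged replicate 1 held the high value with 63 of the 94 UMIs. The log2 fold change was 2.30 ± 0.73 (SE), and without that library the gene no longer passed the filter on low counts. The 6 parietal markers were all present in each of these sums, at 1156 to 1623 CPM, while the 9 tubule markers summed to 49.4, 109, 94.2 and 85.8 CPM. Markers of other classes were higher there. Those of smooth muscle and renin cells summed to 1791, 1789, 2790 and 3485 CPM, with 3, 3, 3 and 4 of 6 at 0. Tagln, which is on that list, was also among the top genes of named parietal epithelial clusters. Podocyte markers summed to 599 to 1482 CPM. The part of RNA from other classes in the parietal values was not tested. Srxn1 was also higher in the aged endothelial libraries, at 16.5, 17.6, 26.1 and 21.0 CPM, and in the aged mesangial ones, at 10.2, 10.9, 22.9 and 15.6 CPM. Podocyte values of 6.28 to 9.06 CPM overlapped.

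Nqo1, the quinone reductase often used as a readout of NRF2, was near the limit of detection in glomerular cells. Podocytes had 11, 6, 8 and 5 UMIs, endothelial cells 9, 5, 24 and 10, mesangial cells 1, 0, 11 and 1, and parietal epithelial cells 1, 2, 0 and 3. The endothelial sums passed the filter, with a log2 fold change of -0.24 ± 0.53 (SE). In the other classes an age difference was not detectable at this depth.

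**Figure D3:**
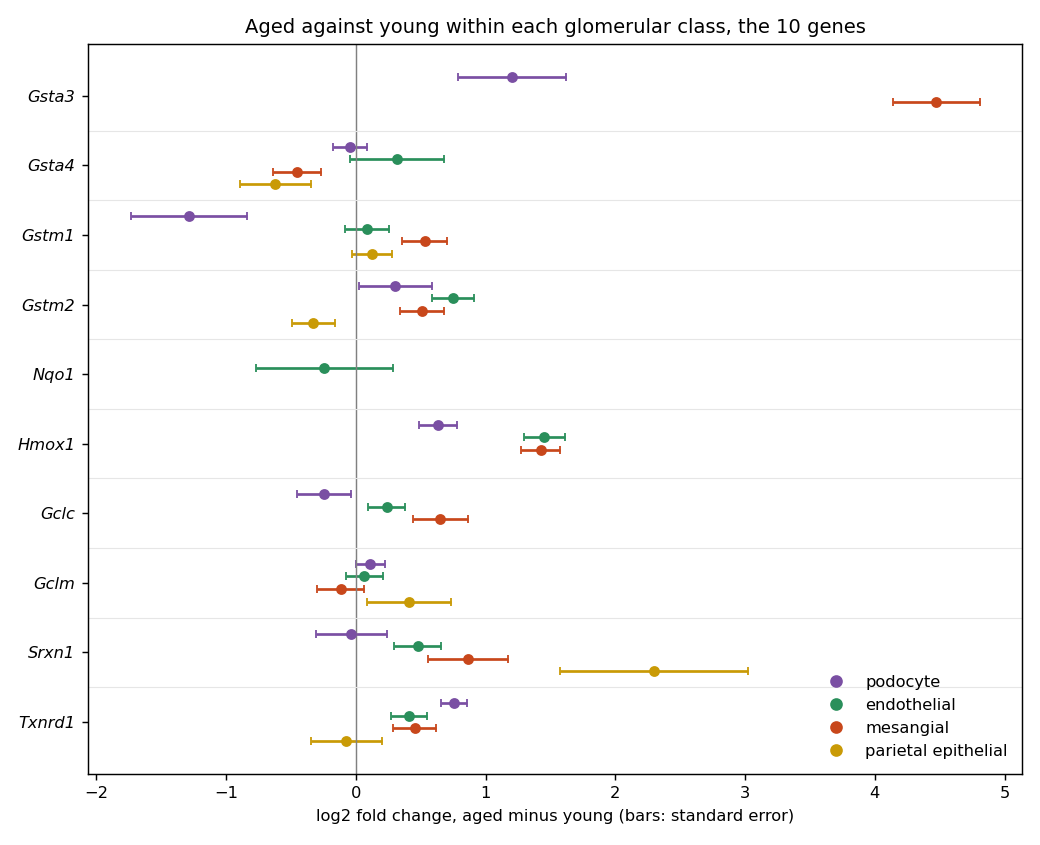
Log2 fold change, aged minus young, of each of the 10 genes in each glomerular class that tested it (x axis), with standard errors as bars and the class as colour. Mesangial Gsta3 lies at 4.47, Hmox1 lies above 0 in 3 classes, and podocyte Gstm1 lies at -1.29.

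A gene was called at a Benjamini-Hochberg adjusted p under 0.05 in edgeR's quasi-likelihood test over all genes of a class. In podocytes 1 of 9 tested members was called, Txnrd1, where 2.85% of all genes were called and 2.05% were called higher. In endothelial cells 2 of 9 were called, Hmox1 and Gstm2, against 6.18% of all genes in either direction and 4.11% higher. In mesangial cells 2 of 9 were called, Gsta3 and Hmox1, against 5.99% and 3.83%. None of 6 was called in parietal epithelial cells, against 3.88% and 2.04%. All called members were higher in the aged libraries. Because the genes were chosen with this contrast known, nothing is read from these counts.

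The groups did not overlap for 5 of 9 members in podocytes, 5 of 9 in endothelial cells, 8 of 9 in mesangial cells and 4 of 6 in parietal epithelial cells. Among all genes tested that held for 46.4%, 48.9%, 53.8% and 47%, class by class. The members' median log2 fold change was 0.11, 0.32, 0.53 and 0.03 in these classes, against 0.00 to -0.02 over all genes; the classes come from the same 4 libraries and are not independent. The podocyte call of Txnrd1 was lost without aged replicate 1 or 2, at log2 fold changes of 0.72 and 0.79. The endothelial call of Gstm2 was lost without young replicate 2 or aged replicate 1, at 0.62 and 0.52. Without young replicate 1, young replicate 2, aged replicate 1 or aged replicate 2, the number of called members in podocytes was 4, 2, 0 and 0, beside 1556, 1071, 83 and 49 called among all genes. In endothelial cells it was 2, 1, 1 and 2, beside 585, 566, 523 and 733. In mesangial cells it was 2, 2, 3 and 7, beside 73, 121, 1170 and 1752, and in the parietal class 0, 0, 0 and 1, beside 11, 144, 141 and 172. The number of called members thus moved with the number of called genes. Without the filter on low counts it was 3, 1, 7 and 1 in the same order of classes, beside 950, 282, 1278 and 263.

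Other genes of the pathway were counted from a list of 78 that holds none of the 10. In aged endothelial cells 8 of 64 tested genes of this list rose and none fell, against 4.11% of all genes called higher. In mesangial cells it was 8 of 64 and none, against 3.83%, in podocytes 3 of 60 and none, against 2.05%, and in parietal epithelial cells 1 of 36 and none, against 2.04%. The median log2 fold change of the list was 0.14 in endothelial, 0.24 in mesangial, 0.02 in podocyte and 0.01 in parietal epithelial cells. The list was drawn up with earlier results of these data known.

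Nfe2l2 and Bach1 rose in endothelial and mesangial cells. Endothelial Nfe2l2 rose from 277 and 234 to 432 and 405 CPM (a log2 change of 0.71 ± 0.15 SE, adjusted p = 0.0064 in edgeR) and mesangial Nfe2l2 from 226 and 199 to 443 and 304 CPM (0.81 ± 0.19 SE, adjusted p = 0.031). Bach1, the repressor, rose in the same classes, by a log2 fold change of 0.65 ± 0.15 (SE, adjusted p = 0.011) and 0.93 ± 0.15 (SE, adjusted p = 0.0058). Maff, a small MAF partner, was called higher in podocytes at 1.02 ± 0.11 (SE, adjusted p = 0.0026) and in endothelial cells at 0.87 ± 0.17 (SE, adjusted p = 0.0022). Keap1 passed the test in no class: its log2 fold changes were -0.24 ± 0.13 (SE) in podocytes, -0.51 ± 0.16 for the endothelium, 0.21 ± 0.24 for the mesangium and -1.50 ± 0.46 for the parietal class. Several of these calls were lost when 1 group was left with a single library. The mesangial calls of Nfe2l2 and Bach1 were lost without either young library, at adjusted p of 0.204 and 0.296, and 0.141 and 0.0896, while the log2 fold changes were 0.91 and 0.73, and 0.92 and 0.95. The endothelial call of Bach1 was lost without young replicate 1, aged replicate 1 or aged replicate 2 (0.0817, 0.0708 and 0.0619), and those of Nfe2l2 and Maff without aged replicate 1 (0.0793 and 0.0983). All 3 endothelial calls were also lost without the filter on low counts (0.051, 0.0572 and 0.0604 for Nfe2l2, Maff and Bach1). The podocyte call of Maff was lost without aged replicate 1 (0.0644) or aged replicate 2 (0.0544).

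Among enzymes of the list, Gstt1, a theta-class transferase, rose in mesangial cells from 8.15 and 12.6 to 47.9 and 40.5 CPM (a log2 change of 2.14 ± 0.26 SE, adjusted p = 0.0013 in edgeR) and in endothelial cells from 3.07 and 2.51 to 7.39 and 7.20 CPM (1.36 ± 0.29 SE, adjusted p = 0.0063). Mgst1, a microsomal transferase, rose in mesangial cells from 12.7 and 16.8 to 37.4 and 56.3 CPM. Ggct, which breaks down gamma-glutamyl dipeptides, and Sod2, the mitochondrial superoxide dismutase, rose there by log2 fold changes of 1.87 ± 0.38 (SE) and 1.05 ± 0.16 (SE), with adjusted p of 0.019 and 0.005. Me1, a source of NADPH, and Ephx1, an epoxide hydrolase, rose in endothelial cells by 2.20 ± 0.39 (SE) and 0.72 ± 0.14 (SE), with adjusted p of 0.0012 and 0.0029. In podocytes Gpx3, the secreted glutathione peroxidase, rose from 28.3 and 20.8 to 81.5 and 66.0 CPM (1.56 ± 0.17 SE, adjusted p = 0.0024). The 9 tubule markers, from the known main site of Gpx3 in the kidney, summed to 18.1, 5.65, 3.29 and 1.21 CPM in the podocyte sums. Gpx3 was also among the top genes of named parietal epithelial clusters. The markers of that class summed to 70.6, 93.1, 49.2 and 49.8 CPM in the podocyte sums. The part of tubule or parietal RNA in the Gpx3 difference was not tested. Akr1b8, an aldo-keto reductase, was called higher in podocytes (adjusted p = 0.048) but had 15, 10, 36 and 32 UMIs. Gpx1, the cytosolic glutathione peroxidase, rose in parietal epithelial cells by 0.93 ± 0.23 (SE, adjusted p = 0.034). Leaving out single libraries ended the calls of Sod2 and Ggct (without either young library, adjusted p of 0.115 and 0.116, and 0.186 and 0.112), Mgst1 (without young replicate 1, 0.134), Ephx1 (without aged replicate 1, 0.0694), Akr1b8 (without aged replicate 1 or 2, 0.416 and 0.497) and Gpx1 (without young replicate 1, young replicate 2 or aged replicate 2, 0.284, 0.078 and 0.289). With DESeq2 the adjusted p was 0.285 for Akr1b8, 0.0639 for endothelial Gstt1, 0.0518 for Ggct and 0.354 for Gpx1. With mixed cells kept, the change of Ggct was 0.87 (adjusted p = 0.101).

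**Figure D4:**
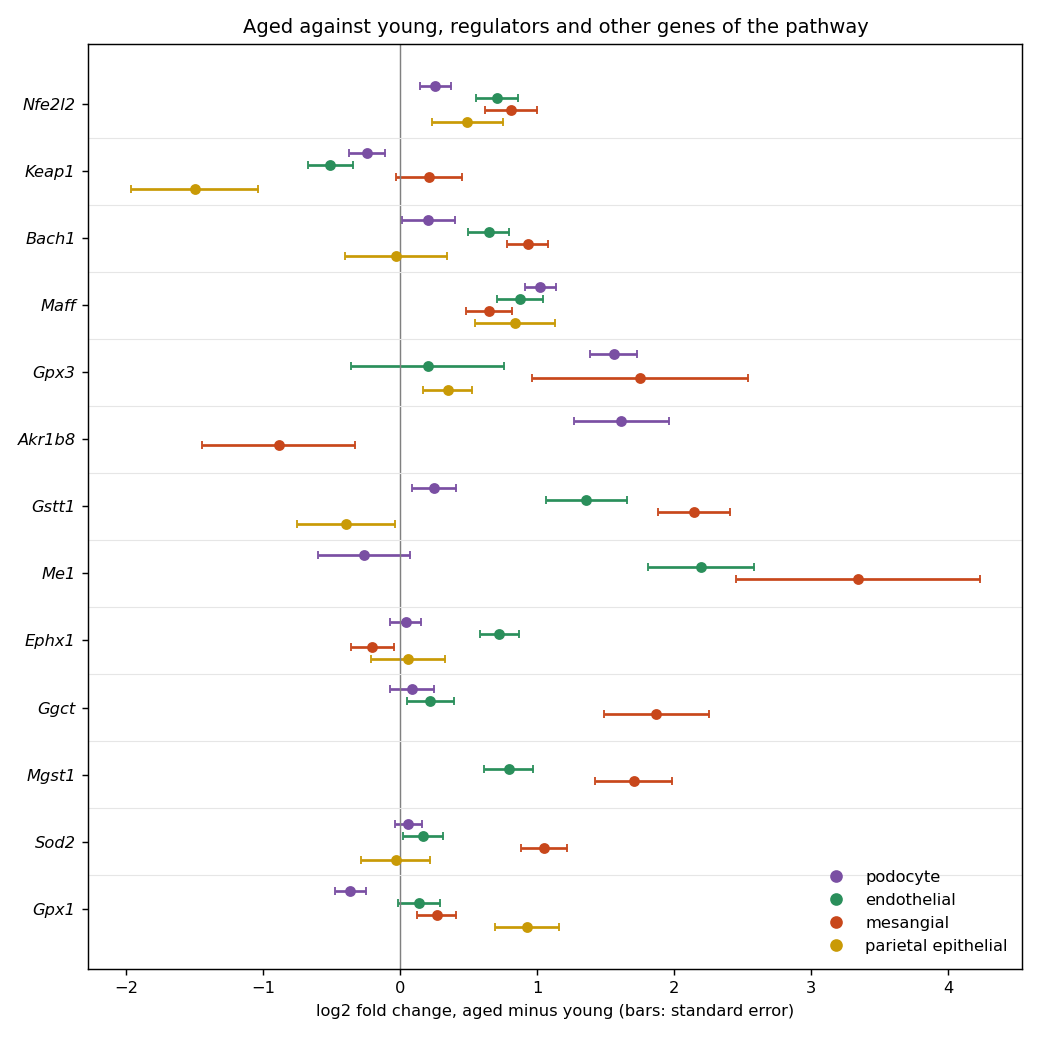
Log2 fold change, aged minus young (x axis), of the regulators Nfe2l2, Keap1 and Bach1 and of other pathway genes named by the rule, with standard errors as bars and the glomerular class as colour. Nfe2l2 lies above 0 in all 4 classes, at 0.71 in endothelial and 0.81 in mesangial cells, the classes where it was called.

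Between cell classes the transferases differed by up to 175-fold. The genes were chosen on age, clusters were formed without the 10 genes and none of them is a class marker, so class differences could be tested. Gsta3 is the exception: its mesangial level comes almost wholly from the aged libraries on which it was chosen, so its levels are described without a test and it is left out of the counts. Each pair of glomerular classes was compared over the 4 libraries, with the library as a block and p-values adjusted over all genes and pairs. Levels in this section are CPM scaled over the sums of all classes. Of 48 tests of the other members, 36 passed. The count was 6 of 8 for podocytes against endothelial cells, where 72.6% of all genes passed, 8 of 8 against mesangial cells (69.1%), and 6 of 8 against parietal epithelial cells (40.5%). It was 5 of 8 for endothelial against mesangial cells (54.9%), 5 of 8 for endothelial against parietal epithelial cells (44.2%), and 6 of 8 for mesangial against parietal epithelial cells (38.7%). Differences between classes were thus common in all genes.

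Podocytes had the most Gsta4 and the least Gstm1 and Gstm2. Gsta4 stood at 362 ± 38.7 CPM (SD, n = 4 libraries) in podocytes, 120 ± 30.8 in parietal epithelial, 106 ± 24.3 in mesangial and 2.97 ± 0.64 in endothelial cells. It was 3.24-fold higher in podocytes than in parietal epithelial cells (edgeR adjusted p = 1.3e-07), 3.30-fold higher than in mesangial cells (adjusted p = 9.7e-09) and 115-fold higher than in endothelial cells (adjusted p = 4.4e-14). Parietal epithelial and mesangial cells, neighbours in this order, did not differ beyond their spread (log2 difference of mesangial minus parietal -0.03 ± 0.17 SE, adjusted p = 0.92).

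Gstm1 was highest in parietal epithelial cells. Its mean was 1765 ± 177 CPM (SD, n = 4) in parietal epithelial, 670 ± 161 in mesangial, 176 ± 28.8 in endothelial and 10.0 ± 7.63 in podocyte sums. Each step down passed the test, by 2.38-fold (edgeR adjusted p = 0.001), 3.99-fold (adjusted p = 1.1e-05) and 18.4-fold (adjusted p = 1.0e-08). Gstm2 had the same order, at 930 ± 99.8, 208 ± 50.5, 71.4 ± 23.9 and 7.23 ± 1.40 CPM. Its steps were 4.12-fold (edgeR adjusted p = 5.4e-08), 3.08-fold (adjusted p = 6.1e-07) and 9.91-fold (adjusted p = 7.5e-10). Between parietal epithelial cells and podocytes, the 2 epithelia of the glomerulus, the difference reached 175-fold for Gstm1 and 126-fold for Gstm2. Outside these classes Gstm1 stood at 128 CPM in smooth muscle and renin cells and 10.96 to 86.1 CPM in immune cells, whereas Gstm2 was at 2.05 CPM in macrophages and 1.07 in monocytes and dendritic cells and had no UMI in neutrophils or in T and NK cells. B cells had a Gstm2 mean of 28.6 CPM, from 12 UMIs that all lay in young replicate 2.

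The order of the classes in Gsta3 depended on age. Mesangial levels were 1.42, 2.36, 39.5 and 40.0 CPM, podocyte levels 2.51, 1.41, 5.54 and 3.85 CPM, and parietal epithelial levels 4.49, 12.1, 0 and 5.85 CPM from at most 3 UMIs per library. Mesangial cells had the highest level in both aged libraries, and in the young libraries they lay below the sparse parietal values and near podocytes. Endothelial levels averaged 0.341 CPM. Among the immune classes 1 UMI was found, in a macrophage sum.

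**Figure D5:**
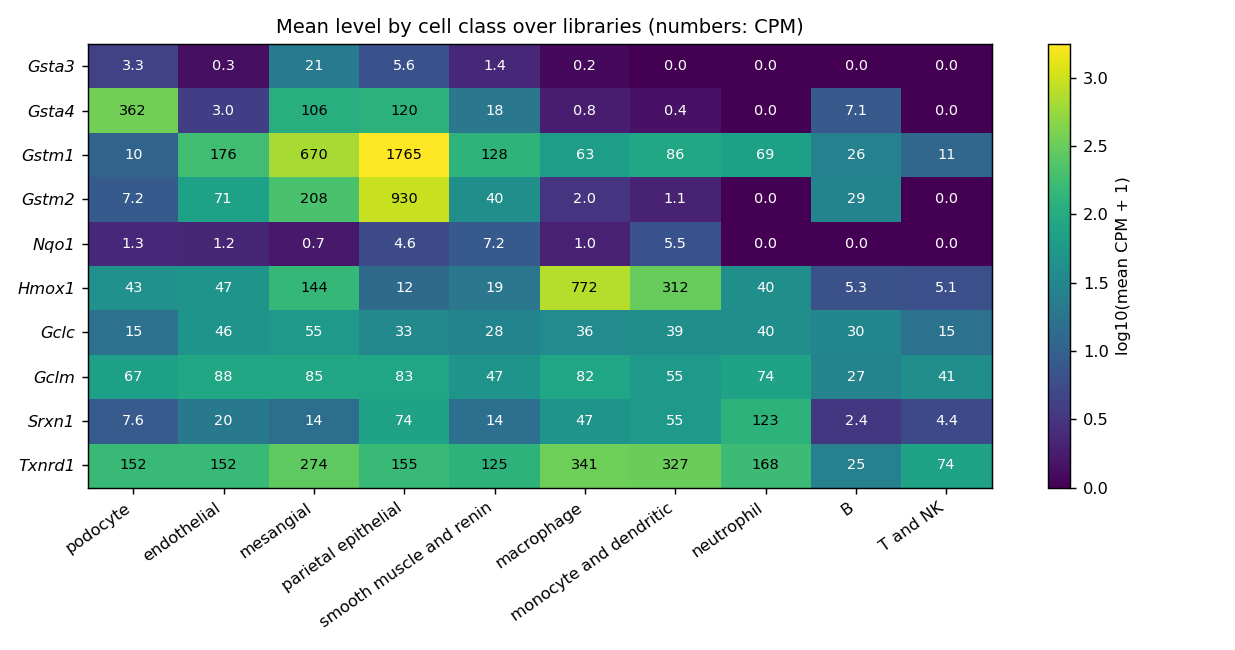
Mean CPM of the 10 genes in every named cell class over the libraries with at least 20 cells of that class (4 libraries, or 2 for macrophages and neutrophils), with colour on a log10(CPM + 1) scale. Gsta4 peaks in podocytes at 362, Gstm1 and Gstm2 in parietal epithelial cells at 1765 and 930, and Hmox1 in macrophages at 772.

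Hmox1 was highest in macrophages. It had 772 ± 73.6 CPM (SD, n = 2) in macrophages and 312 ± 236 (SD, n = 4) in monocytes and dendritic cells. The latter had 159, 61.3, 516 and 511 CPM, higher in both aged libraries, a difference that was not tested. In glomerular classes it stood at 144 ± 75.6 in mesangial, 47.0 ± 25.6 in endothelial, 43.3 ± 11.1 in podocyte and 12.3 ± 11.1 in parietal epithelial sums. Mesangial cells exceeded endothelial cells 3.24-fold (edgeR adjusted p = 4.1e-06), and endothelial cells and podocytes did not differ beyond their spread (log2 difference of podocyte minus endothelial -0.03 ± 0.22 SE, adjusted p = 0.94). Podocytes exceeded parietal epithelial cells 5.40-fold (edgeR adjusted p = 0.0014), but the parietal sums held only 6, 3, 3 and 0 UMIs.

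Txnrd1 was highest among glomerular classes in mesangial cells, at 274 ± 57.7 CPM (SD, n = 4), and 1.94-fold higher there than in podocytes (edgeR adjusted p = 2.2e-05). Podocytes, endothelial and parietal epithelial cells had 152 to 155 CPM, and none of their 3 pairs passed the test. Macrophages, measured in the aged libraries only, had 343 and 339 CPM, and monocytes and dendritic cells had 443 and 458 CPM in those libraries and 189 and 219 CPM in the young ones.

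Srxn1 stood at 74.0 ± 92.6 CPM (SD, n = 4) in parietal epithelial cells, 19.8 ± 4.13 in endothelial, 13.8 ± 5.27 in mesangial and 7.63 ± 1.26 in podocyte sums. Neutrophils, measured in the aged libraries only, averaged 123 CPM from 12 and 5 UMIs. Monocytes and dendritic cells had 13.3, 3.83, 97.6 and 106 CPM, from 4, 1, 92 and 147 UMIs, and this difference was not tested. The parietal excess over endothelial cells (3.27-fold, edgeR adjusted p = 0.00082) was lost without aged replicate 1, at a log2 difference of -0.66 for endothelial minus parietal and an adjusted p of 0.107. Podocytes were below mesangial cells 1.91-fold (adjusted p = 0.028), a call lost without aged replicate 2 (adjusted p = 0.168). Nqo1 did not enter these tests, and its mean stayed between 0.673 and 4.60 CPM in the glomerular classes.

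Gclm had the narrowest range over the 4 classes of the 8 genes tested. It stood at 87.6 ± 6.68 CPM (SD, n = 4) in endothelial, 85.5 ± 11.3 in mesangial, 83.1 ± 20.9 in parietal epithelial and 66.8 ± 3.90 in podocyte sums. The podocyte level was 1.32-fold below the endothelial one (edgeR adjusted p = 0.0058) and 1.34-fold below the mesangial one (adjusted p = 0.0058, and 0.0631 without aged replicate 1), and the other 4 pairs did not pass. Gclc was lower in podocytes, at 15.2 ± 2.67 CPM, than in mesangial (55.1 ± 16.6), endothelial (46.4 ± 5.09) and parietal epithelial cells (32.5 ± 3.98). The podocyte deficit was 3.89-fold against mesangial cells (adjusted p = 1.9e-08), 3.07-fold against endothelial cells (adjusted p = 1.1e-07) and 2.03-fold against parietal epithelial cells (adjusted p = 0.0084, and 0.0685 without aged replicate 2). Podocytes thus had the least Gclc, Gstm1, Gstm2 and Srxn1 of the 4 classes and the most Gsta4.

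For each gene, the 2 genes with the most similar pattern over the 16 sums of glomerular class and library were found among 9360 genes, by Pearson's r of log2 CPM. These sums share libraries and depth, so r is a description. Gsta4 was closest to Htra1 (r = 0.99) and Hoxc6 (r = 0.99), Gstm1 to Fstl1 (r = 0.99) and Evl (r = 0.98), and Gstm2 to Selenbp1 (r = 0.98) and Gstm1 (r = 0.98). Gsta3 was closest to Irs2 (r = 0.87) and Reck (r = 0.83). Hmox1 was closest to Chkb (r = 0.93) and Ctso (r = 0.91), and Txnrd1 to Susd6 (r = 0.94) and Ptpn1 (r = 0.91). Gclc was closest to Bahd1 (r = 0.98) and Nsd3 (r = 0.97), Gclm to Hnrnpk (r = 0.86) and Plekhm2 (r = 0.85), Srxn1 to Tomm34 (r = 0.93) and Ppp4r2 (r = 0.92), and Nqo1, from few UMIs, to CT030159.2 (r = 0.83) and Cnnm4 (r = 0.82).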

How the data were processed

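Droplet-based 3′ single-cell libraries from glomeruli of young mice (2 libraries) and aged mice (2 libraries) were analysed. The deposited matrices held raw UMI counts per gene and barcode; reads were processed by the authors with Cell Ranger, version 6.0.1 per the file headers and 3.1.0 per the labels' protocols, on GRCm38, and Partek is named in the submitters' processing notes. The lowest total of a barcode was 500 UMIs.

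Barcodes with at least 500 genes and at most 20% mitochondrial UMIs were kept, and the top Scrublet scores were removed at 0.8% per 1000 barcodes (1876 removed), since the automatic threshold marked 134. Cells were clustered with scanpy 1.11.5 and leidenalg 0.10.2 (2000 variable genes, 30 components, 15 neighbours, resolution 1), without the 10 members and 78 pathway genes. Mixed clusters were split once more at resolution 0.5. Clusters were named from marker lists at a level of at least 0.47 of the best cluster, with at least 3 markers detected. These naming thresholds were revised repeatedly after clusters and markers had been seen, before any value of the members was computed here. Clusters and cells with markers of several unrelated classes were left out.

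Sums of UMIs over the cells of a class in a library, where it had 20 cells or more, were tested with edgeR 4.0.16 in R 4.3.3 (quasi-likelihood, TMM, default filter), aged against young within a class, and class against class with the library as a block. SE is the size of the log2 fold change over the square root of F. SD is over libraries. Calls used a Benjamini-Hochberg adjusted p under 0.05, over all genes of a class or over all genes and pairs. The functions were tested on simulated data. Positions are from GENCODE vM21. Intervals are exact (Clopper-Pearson) and cover counting error.

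The members and lists were chosen with earlier results of these data known. Named are all 10 members, Nfe2l2, Keap1 and Bach1, per class up to 5 called pathway genes of lowest p in either direction, and 2 genes most like each member. The dissociation genes and Plac8 were named after their values were seen. Alternatives were other size factors, DESeq2 1.42.0, no filter, each library left out, the replicate number as a block, no doublet removal, clustering with the members, resolution 2, mixed cells kept, a mitochondrial limit of 10%, thinning to 500 UMIs and, added after the data were seen, clusters with few mixed cells.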

Additional observations from a re-analysis of the deposited data

Results flagged for a closer look

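For 2 genes the young and aged libraries were separated in opposite directions in 2 classes, and the difference between classes was not tested. Gstm1 was higher in both aged libraries in mesangial cells and lower in both in podocytes, and the log2 fold changes differed by 1.82. Without young replicate 2 the podocyte value was -0.42 in place of -1.29. Gstm2 was higher in both aged libraries in endothelial cells and lower in both in parietal epithelial cells, and the log2 fold changes differed by 1.08.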

How the results depend on the processing

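With 2 libraries a group, counts of called genes moved widely. When single libraries were left out, mesangial Gsta3 ranged from 4.09 to 4.80 and Hmox1 from 1.36 to 1.50 (log2), but podocyte Gstm1 from -1.90 to -0.42. Mesangial Gsta4 ranged from -0.72 to -0.22, Gstm2 from 0.27 to 0.73, Gclc from 0.40 to 0.91 and Txnrd1 from 0.25 to 0.65. Parietal Srxn1 ranged from 1.99 to 3.22 in 3 such fits, and without aged replicate 1 it failed the filter on low counts. Leaving out single libraries gave 49 to 1556 called genes in podocytes (312 with all libraries), 523 to 733 for endothelial cells (805), 73 to 1752 for mesangial cells (657) and 11 to 172 for the parietal class (158), and 34313 to 40718 called tests between classes. Without the filter on low counts the numbers were 950, 282, 1278 and 263. DESeq2 called 499 (endothelial), 409 (mesangial) and 38 (parietal). With mixed cells kept, 81 were called in podocytes and 1007 in mesangial cells, with doublets kept 77 in parietal epithelial cells, and with only clusters of few mixed cells 670 in podocytes. The cause of these shifts was not tested.

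The replicate numbers did not pair the libraries: the deviations of same-numbered libraries from their group means correlated at -0.04, 0.10, 0.02 and 0.05 (podocytes, endothelial, mesangial, parietal). A replicate block gave 478, 1520, 920 and 247 called genes, and 2, 4, 3 and 1 called members.

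Values near 0 changed sign. With single libraries left out, Gsta4 and Srxn1 in podocytes ranged from -0.22 to 0.16 and from -0.34 to 0.19, endothelial Gstm1 and Gclm from -0.13 to 0.36 and from -0.05 to 0.21, mesangial Gclm from -0.33 to 0.10 and parietal Txnrd1 from -0.52 to 0.22. Bach1 in podocytes ranged from -0.083 to 0.49 with single libraries left out, and in parietal epithelial cells from -0.38 to 0.46. The latter was 0.083 without the filter, 0.14 with doublets kept, 0.049 with members used for clustering and 0.21 with mixed cells kept. Keap1 in mesangial cells ranged from -0.023 to 0.41, and was -0.10 with mixed cells kept. Between classes, with single libraries left out, endothelial minus mesangial Gclm ranged from -0.082 to 0.072, mesangial minus parietal Gsta4 from -0.082 to 0.012, and podocyte minus parietal Gsta3 from -0.84 to 0.40. Podocyte minus endothelial differences ranged from -0.17 to 0.15 for Hmox1 and from -0.091 to 0.052 for Txnrd1, and Txnrd1 against parietal cells ranged from -0.24 to 0.14 in podocytes and -0.15 to 0.11 in endothelial cells. With DESeq2 size factors, endothelial minus mesangial Gclm was 0.0055, podocyte minus parietal Txnrd1 -0.13 and endothelial minus parietal Txnrd1 -0.0074. Without the filter, mesangial minus parietal Gsta4 was 0.017 and endothelial minus mesangial Gclm 0.064. Thinning to 500 UMIs in place of 1000 left 82 shares within their interval and moved 108. Mesangial and parietal epithelial cells could not be refitted with only clusters of few mixed cells, nor parietal epithelial cells with the stricter mitochondrial limit, because too few cells were left.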
